A study of Mus musculus with 2 samples.

Results

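The genes described are 10 members of the fibroblast growth factor (FGF) system in mouse: the ligand genes Fgf2, Fgf7, Fgf10 and Fgf18, the receptor genes Fgfr1, Fgfr2 and Fgfr3, and the Sprouty genes Spry1, Spry2 and Spry4. They were chosen by name, and every non-control probe set that the platform annotation gives to 1 of these genes alone was used, which came to 20 probe sets of 34945 with a single gene and 10 genes of 18193. Messenger RNA of unsorted marrow cells from Cpdm mice and from wildtype mice was hybridised to Affymetrix arrays, 1 per genotype. Cpdm mice carry the spontaneous chronic proliferative dermatitis mutation and are deficient in SHARPIN, part of the complex that builds linear ubiquitin chains. Both cultures grew for 10 days with ascorbic acid at 50 µg/ml and β-glycerophosphate at 10 mM, a mixture that favours bone formation in culture, and no other treatment was given. The labels name no strain, age or number of mice for either culture.

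FGF ligands are secreted proteins that bind tyrosine kinase receptors together with heparan sulfate, and the receptors signal mainly through the Ras and ERK kinase cascade. Sprouty proteins are made in response to that cascade and dampen it, so they form a feedback loop. In the skeleton, FGFR1 and FGFR2 act in osteoblast precursors and osteoblasts, FGFR3 is best known as a brake on growth plate cartilage that is also found in osteoblasts, and FGF18 and FGF2 are ligands of bone-forming cells. FGF7 and FGF10 are made by mesenchymal cells and signal chiefly to the epithelial splice form of FGFR2.

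The 3 receptor genes were lower in the Cpdm culture, by 1.95-fold to 6.31-fold, whereas no ligand or Sprouty gene differed by 2-fold on the probe set that represents it. Dim signals were raised to a floor, the 40th percentile of an array's non-control probe sets, which was 18.5 for Cpdm and 18.7 for wildtype, and a gene counted as measured if its brightest probe set reached the floor in at least 1 array. By this rule 8 of the 10 genes were measured, with Fgf2 and Fgf18 below the floor in both arrays. Fgfr2 and Fgfr3 were at least 2-fold lower in Cpdm, which is 2 of 8 genes, beside 5.98% of all 14055 measured genes. None of the 8 was at least 2-fold higher, beside 5.84% of all measured genes. With a 1.5-fold rule Fgfr1, Fgfr2 and Fgfr3 were lower, 3 of 8 beside 13.5% of all genes, and Spry4 was higher, 1 of 8 beside 15.7%. A log2 ratio below 0 was found for 5 of the 8, beside 47.6% of all genes. The median log2 ratio of Cpdm over wildtype was -0.38 over the 8 measured genes and 0.027 over all measured genes. A single array per genotype gives neither replicate error nor a test, so every value describes these 2 arrays. In a culture of mixed cells, fewer cells of a type and less RNA per cell cannot be told apart.

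**Figure D1:**
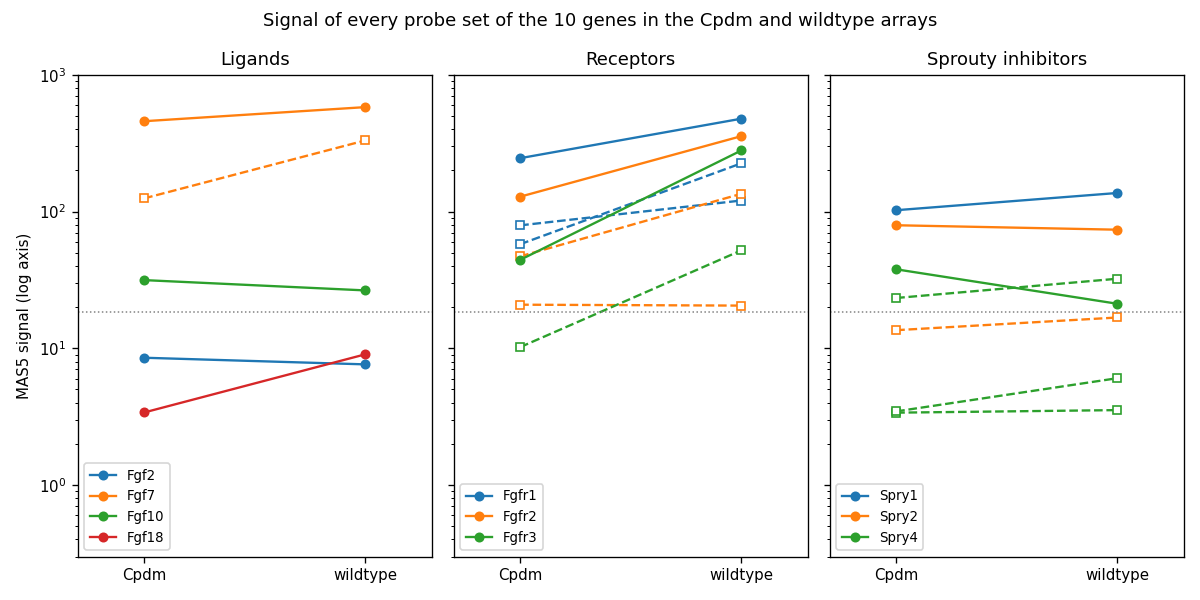
MAS5 signal (log axis) of all 20 probe sets of the 10 genes in the Cpdm array (left in each panel) and the wildtype array (right), with filled circles and solid lines for the probe set that represents a gene, open squares and dashed lines for its other probe sets, and a dotted line at the Cpdm floor of 18.5. Of the 8 receptor probe sets, 7 slope upward towards wildtype, and the dim Fgfr2 probe set at 20.8 and 20.5 lies flat just above the floor.

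Measurement error was judged within the array pair. The 18 hybridisation spike-in probe sets, transcripts added in equal amounts to each sample, had log2 ratios between -0.22 and 0.20, with a mean of 0.013 ± 0.11 (SD, n = 18 probe sets). The disagreement between the 2 brightest probe sets of a gene corresponded, over 5250 genes, to an SD of 0.32 on the log2 scale for a single probe set, estimated robustly, and it depended on brightness: it was 0.44 where the dimmer probe set had a mean signal under 50, 0.33 from 50 to 150 and 0.22 from 150 upwards. Neither yardstick covers variation from mouse to mouse, culture to culture or RNA extraction. The arrays also differed in ways that run alongside genotype. The 18S ribosomal RNA controls, 3 probe sets, had log2 ratios of -2.59, -3.75 and -2.37, the actin 3′ over 5′ signal was 1.92 in Cpdm and 1.61 in wildtype, Xist was 1113 in Cpdm and 247 in wildtype, and the Y-linked gene Uty was 42.9 in Cpdm and 162 in wildtype. The part of these differences in the results was not tested. Sharpin read 162 in Cpdm and 197 in wildtype, and a mutation that shifts the reading frame need not remove a transcript, so this does not check the genotype labels.

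The receptor results turn on Fgfr2 and Fgfr3, so the stretch before the start of each is shown, as the 250 bases upstream of the first listed RefSeq start in build GRCm38.p6. The Fgfr3 stretch is chr5:33721474-33721723 on the plus strand and the Fgfr2 stretch is chr7:130266809-130267058 on the minus strand. Capitals mark matches to the GC box GGGCGG on either strand, the letters bound by SP family factors.
Fgfr3: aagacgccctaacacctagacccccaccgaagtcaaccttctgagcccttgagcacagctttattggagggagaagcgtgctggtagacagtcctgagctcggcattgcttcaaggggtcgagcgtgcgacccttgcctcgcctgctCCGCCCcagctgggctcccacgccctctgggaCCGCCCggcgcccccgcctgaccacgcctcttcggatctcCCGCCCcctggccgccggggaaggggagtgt
Fgfr2: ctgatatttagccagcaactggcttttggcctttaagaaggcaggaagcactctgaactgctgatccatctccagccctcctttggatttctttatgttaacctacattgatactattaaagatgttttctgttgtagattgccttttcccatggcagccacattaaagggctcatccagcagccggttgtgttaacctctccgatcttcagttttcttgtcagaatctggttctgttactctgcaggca
The Fgfr3 stretch held 3 GC boxes and was 66.8% G or C, whereas the Fgfr2 stretch held no GC box and was 44% G or C. Over 32851 promoters of the same length the GC box was found in 32.7%, and the median G or C content was 52.4%. Neither stretch held the RUNX core letters TGTGGT or TGCGGT on either strand, which were found in 14.0% and 5.1% of promoters, nor the TATA letters TATAAA, found in 12.4%. Both genes passed 2-fold on their representative probe sets, with upstream stretches of unlike base composition, and these letter matches describe the sequence alone.

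Fgfr3 encodes the receptor that restrains cartilage growth, and it had the largest difference of the 8 measured genes. Its representative probe set 1421841_at read 44.3 in Cpdm and 280 in wildtype. Fgfr3 was thus well above the floor in wildtype and closer to it in Cpdm, and it was 6.31-fold lower in Cpdm, a log2 ratio of -2.66. Of all measured genes, 115 (0.818%) had a log2 ratio as low or lower. The other probe set, 1425796_a_at, read 10.2 in Cpdm and 52.0 in wildtype. It lay below the floor in Cpdm, and gave at least 2.81-fold lower there. Both Fgfr3 probe sets therefore passed 2-fold in the same direction.

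Fgfr2 encodes the receptor whose splice forms serve mesenchyme and epithelium. Its representative probe set 1433489_s_at had a signal of 128 in Cpdm and 356 in wildtype, which is 2.77-fold lower in Cpdm. The second, 1420847_a_at, read 47.0 in Cpdm and 135 in wildtype, which is 2.87-fold lower. These 2 probe sets gave nearly the same ratio although they differ in brightness. The dimmest, 1443211_at, stood just above the floor at 20.8 in Cpdm and 20.5 in wildtype, with a log2 ratio of 0.022. The 2 brighter probe sets end in _s_at and _a_at, suffixes of probe sets that can bind transcripts of related genes or several transcripts of 1 gene. With such probe sets left out, Fgfr2 rested on the dimmest one and its log2 ratio was 0.022, and with the mean over its probe sets its log2 ratio was -0.99, short of 2-fold.

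Fgfr1 encodes the receptor of early mesenchymal and osteoblast precursors. Its 3 probe sets were all above the floor in both arrays and all lower in Cpdm, by unequal amounts. The representative 1424050_s_at had a signal of 246 in Cpdm and 478 in wildtype, which is 1.95-fold lower and just short of the 2-fold rule. Probe set 1425911_a_at read 57.7 in Cpdm and 225 in wildtype, or 3.91-fold lower. Probe set 1436551_at read 79.2 in Cpdm and 120 in wildtype, or 1.52-fold lower. The direction was thus shared by all 3, while the size spanned 1.52-fold to 3.91-fold, and the mean log2 ratio of -1.18 passed 2-fold. Over the receptors, 5 of 8 probe sets were at least 2-fold lower in Cpdm and 7 of 8 had a log2 ratio below 0. These 8 are repeated readings of 3 genes. Of all 24523 probe sets with a single gene that reached the floor, 6.37% were at least 2-fold lower and 12104 had a log2 ratio below 0. Over all 15 probe sets of the 10 genes that reached the floor, 6 were at least 2-fold lower. None of the 15 was at least 2-fold higher, beside 5.3% of all.

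**Figure D2:**
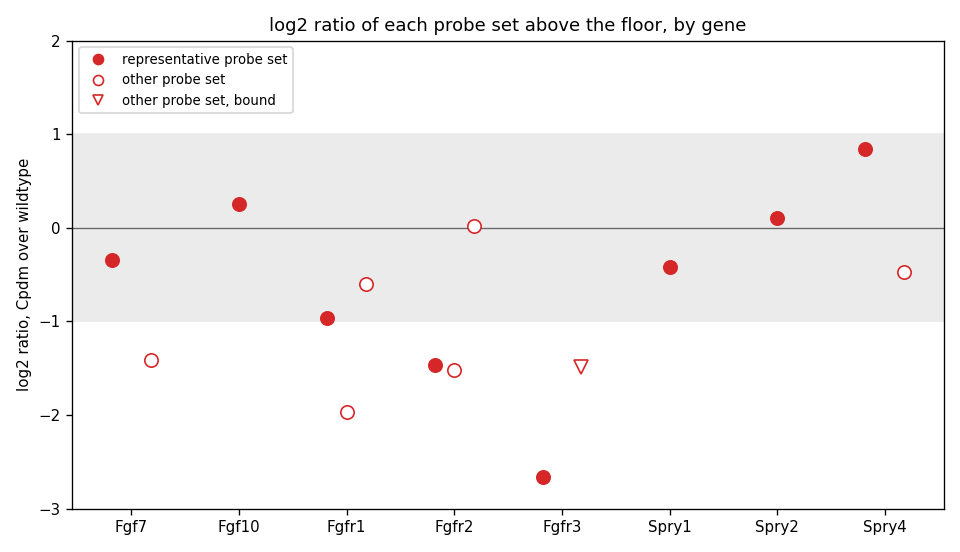
The log2 ratio of Cpdm over wildtype for the 15 probe sets that reached the floor, grouped by gene, with filled circles for the representative probe set, open circles for others, a triangle for a bound and a grey band for differences under 2-fold. The points below the band belong to Fgf7, Fgfr1, Fgfr2 and Fgfr3, and no point lies above it.

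Among the ligands, Fgf7 was the one measured far above the floor. Fgf7 encodes keratinocyte growth factor, a product of mesenchymal cells. Its representative probe set 1438405_at had a signal of 458 in Cpdm and 580 in wildtype, a log2 ratio of -0.34, or 1.27-fold lower in Cpdm. The second probe set, 1422243_at, read 125 in Cpdm and 331 in wildtype, or 2.65-fold lower. The 2 probe sets shared a direction but only the dimmer one passed 2-fold. The SD of 0.22 per probe set at that brightness combines to 0.31 for 2 probe sets. The log2 ratios of -0.34 and -1.41 lie further apart than that. Fgf7 was thus far above the floor in both cultures, and the size of its difference depends on the probe set.

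Fgf10, the gene of another ligand of the epithelial form of FGFR2, was near the floor at 31.5 in Cpdm and 26.5 in wildtype. Its log2 ratio of 0.25 is within the SD of 0.44 found for a single dim probe set. Fgf2, a ligand of many mesenchymal cells, read 8.53 in Cpdm and 7.63 in wildtype, and Fgf18, a ligand of osteoblasts and cartilage, read 3.39 in Cpdm and 9.04 in wildtype. Each of these 2 genes has 1 probe set, and neither signal reached the floor in either array, so no ratio is given for them. At this signal a difference could not be measured, and the transcripts may still be present in either culture.

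The Sprouty genes, whose products restrain signalling between receptor and ERK, were near equal or differed in both directions. Spry1 had a signal of 102 in Cpdm and 137 in wildtype, a log2 ratio of -0.42. Spry2 read 79.4 in Cpdm and 73.7 in wildtype, a log2 ratio of 0.11. Of the measured Sprouty genes Spry2 was the nearest to equal, and its second probe set was below the floor in both arrays. Spry4 was dim on all of its 4 probe sets. The representative 1445669_at read 37.8 in Cpdm and 21.2 in wildtype, a log2 ratio of 0.84, whereas 1440867_at read 23.3 in Cpdm and 32.3 in wildtype, a log2 ratio of -0.47. The other 2 Spry4 probe sets were below the floor in both arrays, so Spry4 has no settled direction. The order of the measured genes by log2 ratio was Fgfr3, Fgfr2, Fgfr1, Spry1, Fgf7, Spry2, Fgf10 and Spry4. Neighbours in that order were set against the combined probe set SD at their brightness. The gap was smaller than that SD between Spry1 and Fgf7 (0.076 against 0.40), between Spry2 and Fgf10 (0.14 against 0.55) and between Fgf10 and Spry4 (0.59 against 0.62), and it was larger between all other neighbours, with Fgfr3 below Fgfr2 by 1.19 and Fgfr2 below Fgfr1 by 0.51. This order holds for the representative probe sets and turns in part with the choice of probe set. With the mean over probe sets Fgfr1, at -1.18, lay below Fgfr2, at -0.99, and Fgf7, at -0.88, lay below Spry1, at -0.42. Without the _s_at, _x_at and _a_at probe sets Fgfr1 was at -0.60 and Fgfr2 at 0.022. Fgfr3 was the lowest in both cases.

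The rest of the pathway was followed through 5 lists, chosen by role but with earlier results of these data known. For the counts in these lists, 5.84% of all measured genes were at least 2-fold higher and 5.98% at least 2-fold lower. Of the other FGF ligands, 11 of 18 were measured, none was at least 2-fold higher in Cpdm and 1 was at least 2-fold lower, and the list's median log2 ratio was -0.067. The 1 that passed was Fgf13, an FGF of the subfamily that stays inside cells and does not act through these receptors, at 33.1 in Cpdm and 73.0 in wildtype, or 2.20-fold lower. The metabolic hormone gene Fgf21, picked out after its values were seen, was below the floor in Cpdm at 3.54 and above it in wildtype at 37.0, a lower bound on the fold that falls just short of the rule.

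In the list of other receptors, co-receptors and binding proteins, 13 of 15 genes were measured, 2 passed 2-fold upward in Cpdm, 2 passed it downward, and the median log2 ratio was -0.019. The larger deficit was that of Gpc1, a glypican that carries heparan sulfate on the cell surface, at 160 in Cpdm and 1889 in wildtype, or 11.8-fold lower by its only probe set. Fgfbp3, which encodes a protein that binds FGFs, read 25.0 in Cpdm and 53.2 in wildtype, or 2.13-fold lower. Heparan sulfate carriers did not share a direction. Sdc1, the syndecan-1 gene, read 716 in Cpdm and 314 in wildtype, or 2.28-fold higher. Its other probe sets gave 2.35-fold and 1.61-fold higher, and a dim one, at 39.9 in Cpdm and 48.1 in wildtype, had a log2 ratio of -0.27.

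Flrt2, a membrane protein gene of a family that can bind FGF receptors, read 226 in Cpdm and 48.8 in wildtype, or 4.64-fold higher in Cpdm. Its other probe sets gave 3.81-fold and at least 2.84-fold higher, so all 3 passed 2-fold the same way. Fgfrl1, the receptor-like gene that lacks a kinase domain, had log2 ratios of 0.49 and 0.44 on its 2 probe sets, and Fgfr4, the remaining kinase receptor, was dim at 20.2 in Cpdm and 40.3 in wildtype. Both were picked out after their values were seen. A second Fgfr4 probe set read 25.6 in Cpdm and 16.5 in wildtype, in the opposite direction. The deficit of Fgfr1, Fgfr2 and Fgfr3 therefore did not extend to Fgfrl1, and Fgfr4 gave no settled direction.

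The transducers between receptor and ERK showed no common shift. Of 19 genes listed, 13 had a probe set with a single gene, all 13 were measured, 1 was at least 2-fold higher and 1 was at least 2-fold lower. The median log2 ratio was -0.0071. Frs3, a docking protein of activated FGF receptors, read 83.5 in Cpdm and 33.8 in wildtype, or 2.47-fold higher. Plcg1, the phospholipase gamma-1 gene whose product binds activated FGF receptors, read 96.9 in Cpdm and 204 in wildtype, or 2.10-fold lower, and a second probe set gave 1.35-fold lower. The adaptor gene Grb2 and the kinase gene Map2k1 had log2 ratios of 0.36 and 0.15.

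Feedback inhibitors outside the Sprouty members were led by Dusp6. Of 11 genes listed, 9 were measured. On their representative probe sets all 9 had a log2 ratio above 0, beside 52.4% of all measured genes. At least 2-fold higher was 1, and the median was 0.62. Dimmer probe sets of Cbl, Il17rd, Spred1 and Dusp7 went the other way, with log2 ratios down to -0.48, -0.33, -0.49 and -0.084. Further dimmer probe sets of Cbl, Spred1 and Dusp7 were above 0. Dusp5 was above the floor in Cpdm only, at 21.5, so its ratio is a bound. The count above 0 was 8 under spike-in scaling, since Spred2 lay at 0.020. Dusp6, the ERK phosphatase gene that is a standard readout of FGF signalling, read 1352 in Cpdm and 478 in wildtype, or 2.83-fold higher by its only probe set. Dusp4, another phosphatase gene of this class, read 143 in Cpdm and 77.7 in wildtype, a log2 ratio of 0.88. When all probe sets of a gene were averaged the median of this list was 0.25. Of the 12 measured genes induced by ERK, 9 had a log2 ratio above 0, beside 52.4% of all measured genes. Among these 9, Etv4 was above the floor in Cpdm only, at 29.2, so its ratio is a bound. Myc and Junb were near equal, at 0.068 and 0.20. Of the same 12, 1 was at least 2-fold higher and none at least 2-fold lower, beside 5.84% and 5.98% of all. The median was 0.60, and 0.38 with the mean over probe sets or with the floor at the 50th percentile. Egr3, an immediate early transcription factor gene, read 73.7 in Cpdm and 31.7 in wildtype, or 2.32-fold higher. Etv5, a transcription factor gene downstream of FGF receptors, had a log2 ratio of 0.66 on its brightest probe set and -0.14 and -0.43 on the others. Ccnd1, the cyclin D1 gene, was lower on every probe set, with -0.38 on its brightest and -0.78 and -1.01 on the others. Many other receptors act through ERK and induce the same genes.

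**Figure D3:**
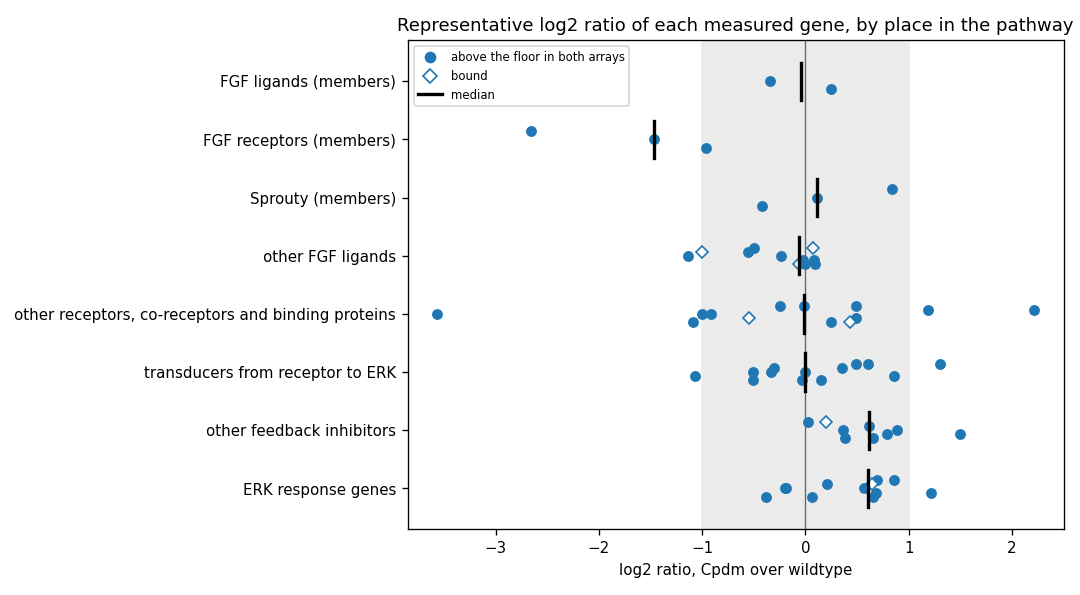
The log2 ratio of Cpdm over wildtype of each measured gene by its representative probe set, arranged by place in the pathway, with circles for genes above the floor in both arrays, diamonds for bounds, black bars for medians and a grey band for differences under 2-fold. The receptor members sit lowest with a median of -1.47, the Sprouty members lie within the band, and the other feedback inhibitors and the ERK response genes have medians of 0.62 and 0.60.

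The osteoblast markers were lower in Cpdm, as the receptor genes were. Of the osteoblast markers, 7 of 10 had a probe set with a single gene, and Bglap, Runx2 and Spp1 had none. All 7 had a log2 ratio below 0, beside 47.6% of all measured genes. At least 2-fold lower in Cpdm were 6 of the 7, beside 5.98% of all. The exception was Ibsp, 1.31-fold lower on its brightest probe set and 6.20-fold lower on the other. Phex was below the floor in Cpdm, so its fold is a bound. The summed signal over the 7 genes was 4910 in Cpdm and 14748 in wildtype. Their median log2 ratio was -2.98, and the osteoblast transcription factor gene Sp7 had -2.90, beside -2.66 for Fgfr3, -1.47 for Fgfr2 and -0.96 for Fgfr1. Chondrocyte markers did not share a direction. Of the 3 measured, Col2a1 was at least 2-fold lower in Cpdm, Acan had a log2 ratio of -0.70 and Sox9, near the floor at 27.2 in Cpdm and 19.0 in wildtype, had 0.52, while Col10a1 lay below the floor in both arrays. A second Sox9 probe set, at 3.25 in Cpdm and 24.0 in wildtype, went the other way. The sums of 143 in Cpdm and 300.0 in wildtype came mostly from Col2a1.

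Markers of other mesenchymal cells went the other way in part. Among the 7 marrow stroma markers, Cxcl12 and Col3a1 passed 2-fold upward in Cpdm and Pdgfra passed it downward, with sums of 5347 in Cpdm and 2805 in wildtype that came mostly from Col3a1 and Cxcl12. Among the 4 measured smooth muscle and myofibroblast markers, Tagln and Cnn1 passed 2-fold upward in Cpdm and Des passed it downward, with sums of 5914 in Cpdm and 2790 in wildtype. The macrophage markers, all 7 measured, summed to 12995 in Cpdm and 10482 in wildtype, with a median log2 ratio of 0.46. Of these 7, 1 was at least 2-fold higher in Cpdm, beside 5.84% of all measured genes. It was Fcgr1, at 708 in Cpdm and 209 in wildtype, or 3.39-fold higher, and 2.56-fold higher on a second probe set. The part of these cells in the FGF receptor values was not tested.

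As a check of the labelled tissue, all 7 macrophage and all 7 marrow stroma markers were above the floor in both arrays. Of all 18193 genes, 13209 reached the floor in Cpdm and 13241 in wildtype, so these counts are a weak check. The stromal genes Thy1 and Lepr were dim, at 49.1 and 42.7 in Cpdm and 26.6 and 45.9 in wildtype. Of the 5 endothelial markers Pecam1, Cdh5, Tek and Emcn lay below the floor in both arrays, and the VEGF receptor gene Kdr was above it, at 75.7 in Cpdm and 97.9 in wildtype. The keratin gene Krt14 and the cadherin gene Cdh1 lay below the floor in both. The epithelial markers Epcam and Krt5 read 70.0 and 38.9 in Cpdm and 106 and 28.6 in wildtype. The erythroid and lymphoid markers with a probe set of their own were dim, with no signal above 41.0. The neutrophil, osteoclast and adipocyte markers had median log2 ratios of -0.43, -0.46 and -0.47, over 4, 3 and 4 measured genes. The neutrophil markers were dim, with no signal above 47.1, and Ltf, a bound, was at least 2.06-fold lower in Cpdm. The osteoclast marker Acp5 was near equal at -0.0026, and the adipocyte marker Adipoq, a bound, lay above 0 at 0.54.

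**Figure D4:**
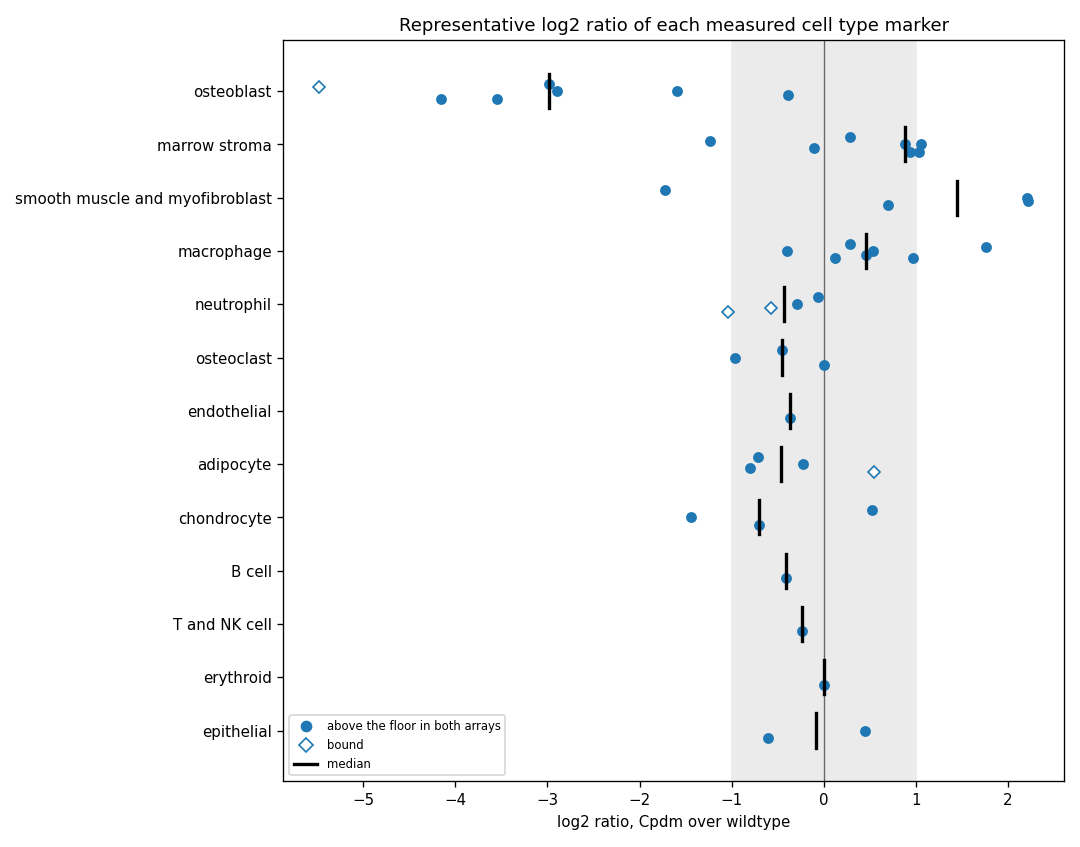
The log2 ratio of Cpdm over wildtype of each measured cell type marker by its representative probe set, with circles for genes above the floor in both arrays, diamonds for bounds, black bars for medians and a grey band for differences under 2-fold. The osteoblast markers lie to the left with a median of -2.98, and the marrow stroma and the smooth muscle and myofibroblast markers have medians of 0.88 and 1.45.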

How the data were processed

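The deposited values are MAS5 signal intensities on a linear scale for 45101 probe sets in 1 array per genotype. The submitters' processing notes name MAS5 and GCOS 1.4. The mean intensity without the top and bottom 2% of probe sets was 100.0 in each array. No detection calls were used, and no source used here states the scaling target. Of the 45037 non-control probe sets, 34945 had exactly 1 gene in the platform annotation, 932 had several and 9160 were unlisted here.

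Signals under the floor were set to it, the brightest probe set of a gene by mean log2 signal then stood for it, and the log2 ratio of Cpdm over wildtype was counted by a fixed rule of 2-fold. A fold against a signal at the floor is a lower bound. No gene test was possible with 1 array per genotype. The members and gene lists were chosen with earlier results of these data known. All members were named, and in each pathway list every gene past 2-fold. In the marker lists not every gene past 2-fold was named. Other genes named were picked after their values were seen. Alternatives were other scalings, floors, probe set rules and a 1.5-fold rule. The procedure was tested on simulated data, with changes placed in bright genes only and the same spread at every brightness. That test does not show how well changes in dim genes are recovered. Python 3.11.15, numpy 2.4.6, pandas 2.3.3 and matplotlib 3.10.9 were used. Signals depend on probe affinity, so ratios are taken within a probe set. A summed marker signal is weighted by its brightest probe sets and is compared between the arrays only. The number of arrays limits the precision.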

Additional observations from a re-analysis of the deposited data

How the results depend on the processing

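With 1 array per genotype no replicate could be left out, and no paired analysis was possible because each genotype has 1 array. Fgfr3 was at least 2-fold lower in Cpdm under every alternative run, with log2 ratios between -2.68 and -2.08. Fgfr2 stayed lower by 2-fold under the 3 other scalings and the 3 other floors, but its log2 ratio was -0.99 with the mean over probe sets and 0.022 without the _s_at, _x_at and _a_at probe sets, since only its dimmest probe set then remains. Fgfr1 lay between -1.18 and -0.60, Fgf7 between -0.88 and -0.32 and Spry4 between 0.18 and 0.86. The count of members at least 2-fold lower was 2 with the rule used, 1 without the suffixed probe sets, and 3 with no floor, when Fgf18 joined. At 1.5-fold, 3 members were lower, among 13.5% of all measured genes, and 1, Spry4, was higher, among 15.7%. Over all genes, 821 higher and 840 lower became 1741 and 1885 with no floor, and 2210 and 1895 at 1.5-fold. The median of the other feedback inhibitors was 0.62, and 0.25 with the mean over probe sets. Counts in the lists are small: the other FGF ligands at least 2-fold lower were 1, and 2 to 4 with spike-in scaling, a lower floor, no floor or 1.5-fold. In the list of other receptors, co-receptors and binding proteins, 2 genes were higher, and 4 with no floor and 1 with the mean over probe sets or without the suffixed ones; 2 were lower, and 1 with the highest floor, 3 with spike-in scaling, a lower floor, no floor or the mean over probe sets and 4 at 1.5-fold. For the feedback inhibitors and the ERK response genes the count higher was 1 each, and 2 each with no floor and 5 and 6 at 1.5-fold; with a lower floor the ERK response count was also 2, and with no floor 1 feedback inhibitor was lower, against 0 otherwise. For the transducers it was 1, and 3 at 1.5-fold, and the count lower was 1, and 0 with the mean over probe sets. The other 85 recomputed counts and medians stayed within 1.5 times, or within 0.32 log2 units for medians. Of the ratios of single members and the counts of the lists, 169 stayed within those limits, 24 moved further and 1, that of Fgfr2, changed sign. Dim signals limit Fgf2, Fgf10, Fgf18 and Spry4.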

Other observations

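The syndecan genes, cell surface carriers of heparan sulfate that FGFs need for binding, differed among themselves. Sdc3 read 479 in Cpdm and 905 in wildtype, or 1.89-fold lower, by its brightest probe set. The remaining Sdc3 probe sets gave 4.54-fold and 1.13-fold lower, so its size depends on the probe set. Sdc2 had log2 ratios of 0.25, -0.47 and -0.12 on its 3 bright probe sets, and Sdc4 had -0.019 and -0.56. The adaptor gene Gab1, which links receptors to the phosphatase SHP2, was 1.81-fold, 1.77-fold and 1.59-fold higher in Cpdm on its 3 probe sets. The co-receptor gene Klb, the partner of Fgf21 in hormone signalling, was below the floor in Cpdm at 3.68 and above it in wildtype at 27.1. These genes were picked out after their values were seen.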
